A study of Mus musculus with 12 samples.

Results

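The ADAMTS genes encode secreted zinc metalloproteinases that carry thrombospondin repeats, and 10 of them, *Adamts1*, *Adamts2*, *Adamts4*, *Adamts5*, *Adamts6*, *Adamts7*, *Adamts9*, *Adamts10*, *Adamts12* and *Adamts15*, were followed here. They were taken by symbol from an RNA-seq table of 46731 genes, and each symbol matched 1 row. The cells were ATDC5, a chondrogenic mouse line derived from a teratocarcinoma. All of them carried a lentiviral shRNA vector under puromycin selection. The vector held a hairpin that targets the RNA helicase gene *Ddx5* in the shRNA-*Ddx5* line and was a negative control in the shRNA-NC line. Each line was kept in medium or given IL-1β (5 ng/ml) plus TNF-α (25 ng/ml) over 6 h, called cytokines below, and 3 libraries were made in each of the 4 groups. The labels name the control cells wild type, although they hold the control vector. Each group of cells is 1 selected line with 1 hairpin, so an effect of that hairpin or of the selection of a line cannot be told apart from the loss of *Ddx5*. The study describes its 3 experiments as independent, but the labels tie no library to a separate culture, so the p-values measure the spread between these libraries.

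In cartilage the family is known for the aggrecanases, which cut the core protein of aggrecan, the large proteoglycan that lets the tissue hold water. ADAMTS4 and ADAMTS5 are the aggrecanases studied most in osteoarthritis, and ADAMTS1, ADAMTS9 and ADAMTS15 cut aggrecan or versican as well. Other members act on other matrix proteins. ADAMTS2, with its relatives ADAMTS3 and ADAMTS14, trims the amino-terminal propeptide of fibrillar procollagens, ADAMTS7 and ADAMTS12 bind and cut cartilage oligomeric matrix protein, and ADAMTS6 and ADAMTS10 associate with fibrillin microfibrils. The comparisons below address how their mRNA levels stood in the 2 lines and under inflammatory cytokines.

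Values are FPKM, fragments per kilobase of gene length, and each ± is an SD over 3 libraries. The deposited values are scaled between libraries by the median ratio of fragments over genes, not by the sum of fragments. Differences are log2 fold changes (log2FC) of FPKM + 1 from limma with their standard errors (SE), and a call needs a Benjamini-Hochberg adjusted p under 0.05 over 12368 tested genes. On this scale a change of a gene with a low FPKM is understated, so ratios of mean FPKM are given beside it. Libraries held 14119199 to 19276520 fragments on genes.

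The knocked-down gene was checked first. *Ddx5* was at 325, 337 and 294 FPKM in shRNA-NC and at 90.7, 118 and 99.9 FPKM in shRNA-*Ddx5* in medium, and the log2FC was -1.63 both there and with cytokines. Pairs of libraries of the same group correlated at 0.973 to 0.993 across genes. The 3 libraries of shRNA-NC with cytokines spread widely in the ADAMTS genes. Replicate 2 was the highest of them in 8 of the 10 genes and the lowest in 0, and replicate 1 was the lowest in 7. In shRNA-NC medium, too, replicate 2 was the highest in 8 of the 10. The *Ddx5* level of replicate 2 with cytokines, 302 FPKM, lay beside the 327 and 301 FPKM of the other two. Its correlation with each of the 3 shRNA-*Ddx5* cytokine libraries was 0.961, against 0.935 to 0.952 for replicates 1 and 3. Results that rest on 1 of these libraries are given with and without it.

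The chondrogenic label was also checked. *Sox9*, the master regulator of chondrocytes, stood at 27.5 ± 0.327 FPKM in shRNA-NC medium and *Col2a1*, the collagen of hyaline cartilage, at 12.4 ± 3.05 FPKM. *Acan*, the aggrecan gene itself, was nearly silent: each library had 0 to 4 *Acan* fragments, and 3 fragments would equal 0.0188 to 0.0258 FPKM. *Matn1* and *Comp* were also at or below 0.333 FPKM in all 12 libraries. The leukocyte gene *Ptprc* was listed at 0 throughout, and markers of endothelial and epithelial cells summed to at most 0.119 FPKM, whereas *Cd68*, from the leukocyte list, lay at 0.890 to 2.10 FPKM in all 12 libraries. The 8 chondrogenic markers summed to 39.2 to 44.4 FPKM in shRNA-NC medium, 26.3 to 30.1 FPKM in shRNA-*Ddx5* medium, 12.9 to 18.0 FPKM in shRNA-NC with cytokines and 7.30 to 8.07 FPKM in shRNA-*Ddx5* with cytokines. The 5 mesenchymal markers, led by *Col1a2* and *Vim*, summed to 2037 to 2529, 3271 to 3483, 1330 to 1538 and 2231 to 2533 FPKM in the same order, and the 3 pluripotency markers to 8.81 to 14.8, 14.0 to 20.7, 4.95 to 5.74 and 4.65 to 5.43 FPKM. These sums moved with both factors beside the ADAMTS genes, and their part in the results was not tested. Single markers did not all follow their sum. *Vim* was called lower with the knockdown (log2FC -0.41 in medium and -0.68 with cytokines), while *Col1a1*, *Col1a2* and *Col3a1* were called higher in both. *Sox6* and *Col10a1*, untested, went from 0.171 to 0.914 and from 0.0384 to 0.248 FPKM with the knockdown in medium. *Sox2* led the pluripotency sums, and *Pou5f1* was listed at 0. All 6 genes of a list of cytokine targets (*Nfkbia*, *Tnfaip3*, *Cxcl1*, *Ccl2*, *Il6* and *Saa3*) rose with cytokines in both lines, with a median log2FC of 5.67 in shRNA-NC and 6.06 in shRNA-*Ddx5*. Over all tested genes, 18.6% rose with cytokines in shRNA-NC and 13.5% in shRNA-*Ddx5*. *Il6* and *Saa3* had at least 1 FPKM in cytokine libraries alone, so they could hardly have been tested without rising. In bulk RNA, fewer cells that express a gene and less RNA per cell cannot be told apart.

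*Adamts1* and *Adamts5* lie close together on mouse chromosome 16. In GRCm39, *Adamts1* spans chr16:85590715-85600001 and *Adamts5* chr16:85655045-85698013, both on the minus strand, with 55043 bases and 1 untested gene between them. *Adamts2* lies at chr11:50492912-50698400 on the plus strand. The 250 bases before the outermost annotated start (that of the table or of GENCODE vM39, so that no annotated exon of the gene enters) are shown for *Adamts1* and *Adamts2*, which both rose with the knockdown and lie on different chromosomes. The study concerns DNA G-quadruplexes, so the G-quadruplex pattern was searched, here 4 runs of at least 3 G with 1 to 7 bases between runs. TATAAA, the GC box GGGCGG, the AP-1 site TGANTCA and the kappa-B site were searched also, all on both strands, and matches are in capitals.
*Adamts1* (chr16:85600010-85600259, minus strand): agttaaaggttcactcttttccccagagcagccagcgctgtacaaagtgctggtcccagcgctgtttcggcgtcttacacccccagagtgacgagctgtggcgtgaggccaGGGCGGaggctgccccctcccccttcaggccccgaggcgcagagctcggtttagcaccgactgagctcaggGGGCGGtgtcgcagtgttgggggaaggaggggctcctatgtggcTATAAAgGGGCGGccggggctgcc
*Adamts2* (chr11:50492537-50492786, plus strand): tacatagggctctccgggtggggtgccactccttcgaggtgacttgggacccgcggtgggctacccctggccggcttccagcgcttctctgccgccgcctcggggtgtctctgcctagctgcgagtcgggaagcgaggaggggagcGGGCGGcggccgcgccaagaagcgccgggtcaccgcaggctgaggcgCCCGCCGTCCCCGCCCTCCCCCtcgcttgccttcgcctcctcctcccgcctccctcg
The *Adamts1* window held TATAAA from 24 to 19 bases before the start and 3 GC boxes, and its GC content was 64.8%. The *Adamts2* window held 2 GC boxes and a G-quadruplex pattern on the opposite strand that contains the nearer of the 2 GC boxes, at 73.6% GC. The median was 52.0% GC over 12330 tested genes. Over the windows of 9 of the ADAMTS genes, all but *Adamts5*, the G-quadruplex pattern occurred in 3 (*Adamts2*, *Adamts6* and *Adamts15*) against 14.8% of the tested genes' windows. The starts of *Adamts6*, *Adamts7* and *Adamts9* used here lie 1317, 3642 and 911 bases from the nearest GENCODE start. TATAAA occurred in 2 (10.6% of all), the GC box in 3 (34.0%), the AP-1 site in 0 (5.55%) and the kappa-B site in 0 (6.94%). A match is a string of letters, not a bound site.

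*Adamts5* rose with the knockdown in medium and with cytokines, and its log2FC of FPKM + 1 was the highest of the 8 tested ADAMTS genes in both. In medium it stood at 0.907, 1.01 and 0.848 FPKM in the shRNA-NC libraries and at 5.85, 7.59 and 7.00 FPKM in the shRNA-*Ddx5* libraries. With cytokines the libraries held 1.09, 2.48 and 1.28 FPKM in shRNA-NC and 10.2, 10.3 and 11.0 FPKM in shRNA-*Ddx5*. Every shRNA-*Ddx5* library was above every shRNA-NC library. The ratio of *Adamts5* means was 7.39 in medium (log2FC 2.02, SE 0.16, adjusted p = 4.5e-06) and 6.49 with cytokines (log2FC 2.17, SE 0.16, adjusted p = 2.6e-06). By ratio *Adamts5* was the highest of the 8 in medium alone, since *Adamts9*, at a far lower level, had ratios of 3.45 in medium and 6.53 with cytokines. The order with cytokines also turned with a pseudocount of 0.1 (log2FC 2.79 for *Adamts9* and 2.71 for *Adamts5*) and with voom weights (4.14 and 2.78). The cytokine effect on *Adamts5* was smaller. In shRNA-*Ddx5* cells it was called (log2FC 0.56, adjusted p = 0.025), but the call was lost when any 1 of 5 shRNA-*Ddx5* libraries was left out, all but replicate 2 in medium (adjusted p 0.059 to 0.078). In shRNA-NC cells it was not called (log2FC 0.41, adjusted p = 0.074). It became 0.18 (adjusted p = 0.22) without replicate 2 of shRNA-NC with cytokines and 0.55 (adjusted p = 0.027, a call) without replicate 1. The long non-coding gene *Gm46558* overlaps the span of *Adamts5* by 1615 bases on the opposite strand. Its level was 0.209 ± 0.0141 FPKM in shRNA-NC medium and 1.37 ± 0.114 FPKM in shRNA-*Ddx5* medium, with at most 117 fragments in a library against 105 to 1421 for *Adamts5*. The strand setting of the counting is not given in the sources used here, so reads of the shared bases cannot be told apart.

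*Adamts1*, which cuts versican and aggrecan, had the highest mean level of the 10 genes in each group and was called in all 4 pairwise comparisons. Its libraries held 5.02, 5.36 and 4.24 FPKM in shRNA-NC medium, and 9.08, 9.12 and 9.72 FPKM in shRNA-*Ddx5* medium. With cytokines the values were 8.06, 7.73 and 7.11 FPKM in shRNA-NC and 13.4, 13.0 and 13.0 FPKM in shRNA-*Ddx5*. None of the 4 ranges overlapped, and the order was shRNA-NC medium, shRNA-NC cytokines, shRNA-*Ddx5* medium and shRNA-*Ddx5* cytokines. For *Adamts1* the knockdown gave ratios of 1.91 in medium (log2FC 0.82, SE 0.08, adjusted p = 2.2e-05) and 1.72 with cytokines (log2FC 0.71, SE 0.08, adjusted p = 5.3e-05). Cytokines gave ratios of 1.57 in shRNA-NC (log2FC 0.56, adjusted p = 4.5e-04) and 1.41 in shRNA-*Ddx5* (log2FC 0.46, adjusted p = 0.0019). These 4 *Adamts1* calls held under all 20 alternatives each. The interaction, the knockdown effect with cytokines minus that in medium, was -0.10 (SE 0.12, adjusted p = 0.65).

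**Figure D1:**
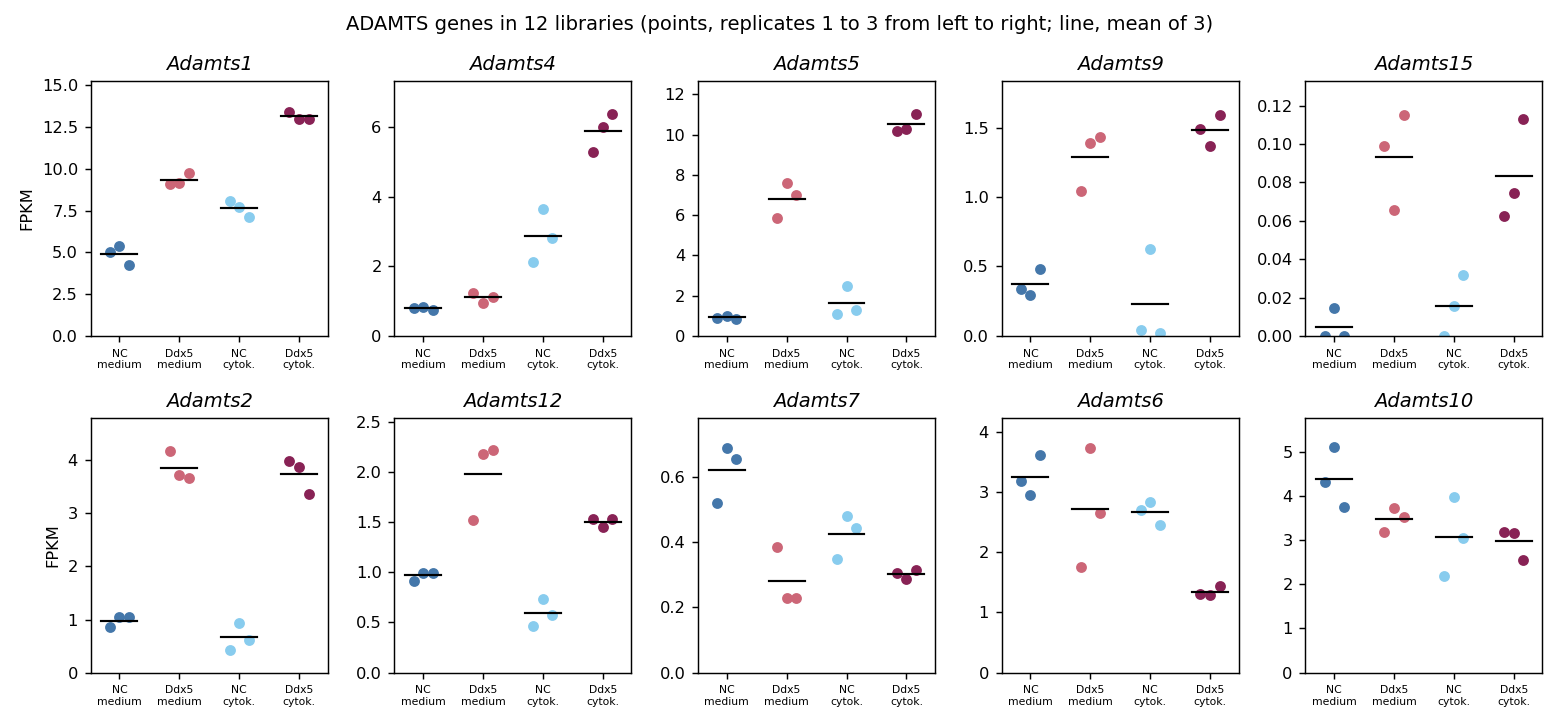
FPKM of the 10 ADAMTS genes (y axes, linear and from 0, separate for each gene) in the 4 groups (x axes, NC for shRNA-NC, Ddx5 for shRNA-Ddx5, cytok. for cytokines). Each point is 1 library and each line the mean of 3. The lines overlap in medium for *Adamts6* and with cytokines for *Adamts10*, and the share of all genes that separate by line was not computed. *Adamts1*, *Adamts4* and *Adamts5* lie higher with cytokines than in medium in both lines, without overlap. Replicate 2 of shRNA-NC with cytokines, at 0.624 FPKM for *Adamts9* beside 0.0400 and 0.0178 FPKM, lies apart from its group.

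*Adamts4* differed from *Adamts5* in that cytokines, not the knockdown, gave its larger changes. In medium its level was 0.799, 0.843 and 0.738 FPKM in shRNA-NC and 1.23, 0.948 and 1.13 FPKM in shRNA-*Ddx5*, without overlap but with a log2FC of 0.23 (SE 0.13) that was not called (adjusted p = 0.17). With cytokines *Adamts4* reached 2.13, 3.63 and 2.82 FPKM in shRNA-NC and 5.29, 6.01 and 6.37 FPKM in shRNA-*Ddx5*. The cytokine ratio was 3.60 in shRNA-NC (log2FC 1.09, SE 0.13, adjusted p = 9.7e-05) and 5.33 in shRNA-*Ddx5* (log2FC 1.71, SE 0.13, adjusted p = 2.0e-06). Too few medium libraries reached 1 FPKM for *Adamts4* to pass the filter on low values without its cytokine libraries, where it is high. Both cytokine calls held under 20 of 20 alternatives, the fit without a filter among them. With cytokines the knockdown gave a ratio of 2.06 for *Adamts4* (log2FC 0.85, SE 0.13, adjusted p = 3.4e-04). Whether this exceeded the effect in medium was not settled. The *Adamts4* interaction was 0.62 (SE 0.18, adjusted p = 0.064), and over its 19 alternatives it was called under quantile normalization (0.63, adjusted p = 0.049) and without replicate 2 of shRNA-NC with cytokines (0.76, adjusted p = 0.015), with a range of adjusted p of 0.015 to 0.23. *Adamts4* lies at chr1:171077698-171089836 on the plus strand.

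*Adamts9* and *Adamts15*, proteases related to ADAMTS4 and ADAMTS5 in what they cut, stayed low. *Adamts9* held 0.341, 0.296 and 0.482 FPKM in shRNA-NC medium and 1.04, 1.39 and 1.43 FPKM in shRNA-*Ddx5* medium. With cytokines the *Adamts9* libraries held 0.0400, 0.624 and 0.0178 FPKM in shRNA-NC, that is 6, 105 and 3 fragments, and 1.49, 1.37 and 1.59 FPKM in shRNA-*Ddx5*. The lines did not overlap in either medium. The ratio of *Adamts9* means was 3.45 in medium (log2FC 0.73, SE 0.16, adjusted p = 0.0036) and 6.53 with cytokines (log2FC 1.05, SE 0.16, adjusted p = 3.7e-04). *Adamts9* passed the filter on low values through shRNA-*Ddx5* libraries alone, so it could hardly have entered this test without being higher there. In the fit without a filter the same differences were also called (adjusted p = 0.0095 in medium and 0.0013 with cytokines, limma). Leaving out replicate 2 of shRNA-NC with cytokines changed the latter to 1.27 (adjusted p = 1.7e-05). In shRNA-NC, the cytokine effect on *Adamts9* was -0.19 (adjusted p = 0.38) with that library and -0.41 (adjusted p = 0.019, a call) without it. *Adamts15* reached at most 14 fragments in a library and was under the filter on low values. It had 0, 2 and 0 fragments in shRNA-NC medium, 11, 8 and 14 in shRNA-*Ddx5* medium, 0, 2 and 4 in shRNA-NC with cytokines and 7, 8 and 12 in shRNA-*Ddx5* with cytokines. The pooled ratio for *Adamts15* was 17.6 in medium, with an exact 95% interval of 4.49 to 151, and 5.06 with cytokines (2.05 to 15.0). These intervals cover counting error only, and the exact two-sided permutation p was 0.10 in both media, the smallest that 3 against 3 libraries allow. In the fit without a filter *Adamts15* was called higher in shRNA-*Ddx5* in medium (log2FC 0.12, adjusted p = 0.0033) and with cytokines (log2FC 0.09, adjusted p = 0.014).

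*Adamts2*, the procollagen N-proteinase, followed the line and not the cytokines. It held 0.861, 1.04 and 1.04 FPKM in shRNA-NC medium and 4.18, 3.72 and 3.67 FPKM in shRNA-*Ddx5* medium. With cytokines the *Adamts2* values were 0.429, 0.940 and 0.623 FPKM in shRNA-NC and 3.98, 3.87 and 3.36 FPKM in shRNA-*Ddx5*. All shRNA-*Ddx5* libraries exceeded all shRNA-NC libraries. The ratio for *Adamts2* was 3.94 in medium (log2FC 1.29, SE 0.12, adjusted p = 8.8e-06) and 5.63 with cytokines (log2FC 1.52, SE 0.12, adjusted p = 2.9e-06). Both calls held under 20 of 20 alternatives, the fit without a filter among them. *Adamts2* reached 1 FPKM in 6 shRNA-*Ddx5* and 2 shRNA-NC libraries. It thus passed the filter on low values only with the help of the line where it is high. The cytokine effect was -0.04 (adjusted p = 0.84) in shRNA-*Ddx5*. In shRNA-NC it was -0.26 (adjusted p = 0.10), and -0.38 (adjusted p = 0.022, a call) without replicate 2 of the cytokine libraries. The 2 relatives with the same activity were also called higher in the knockdown. *Adamts3* was at 0.236 ± 0.0438 FPKM in shRNA-NC medium and 1.03 ± 0.286 FPKM in shRNA-*Ddx5* medium (log2FC 0.70, adjusted p = 6.3e-04), and its log2FC with cytokines was 0.97 (adjusted p = 6.8e-05). *Adamts14* was at 0.312 ± 0.0742 and 1.02 ± 0.240 FPKM in those groups (log2FC 0.62, adjusted p = 0.0012), with a log2FC of 0.58 (adjusted p = 0.0018) with cytokines. *Adamts3* and *Adamts14* passed the filter on low values through shRNA-*Ddx5* libraries alone, so they could hardly have entered the test without differing.

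*Adamts12* and *Adamts7*, the proteases that bind cartilage oligomeric matrix protein, differed from each other. *Adamts12* held 0.915, 0.997 and 0.995 FPKM in shRNA-NC medium and 1.52, 2.18 and 2.22 FPKM in shRNA-*Ddx5* medium. With cytokines the *Adamts12* values were 0.461, 0.736 and 0.569 FPKM in shRNA-NC and 1.53, 1.45 and 1.53 FPKM in shRNA-*Ddx5*. The knockdown ratio for *Adamts12* was 2.04 in medium (log2FC 0.59, SE 0.11, adjusted p = 0.0012) and 2.55 with cytokines (log2FC 0.66, SE 0.11, adjusted p = 5.5e-04). Like *Adamts9*, *Adamts12* passed the filter through shRNA-*Ddx5* libraries alone, the group where it is high, and the differences were also called in the fit without a filter (adjusted p = 0.0036 in medium and 0.0019 with cytokines, limma). Cytokines lowered *Adamts12* in shRNA-NC by a small margin (log2FC -0.31, SE 0.11, adjusted p = 0.046), a call that was lost in 12 of 20 alternatives, 9 of them with 1 library left out. In shRNA-*Ddx5* the effect was -0.24 (adjusted p = 0.13), and -0.36 (adjusted p = 0.020, a call) without replicate 1 of the medium libraries. *Adamts7* was under the filter on low values. It held 0.519, 0.688 and 0.655 FPKM in shRNA-NC medium, 0.386, 0.229 and 0.229 FPKM in shRNA-*Ddx5* medium, 0.349, 0.480 and 0.445 FPKM in shRNA-NC with cytokines and 0.307, 0.286 and 0.316 FPKM in shRNA-*Ddx5* with cytokines. The *Adamts7* values of the lines did not overlap in either medium, with an exact two-sided permutation p of 0.10. In the fit without a filter, *Adamts7* was lower in shRNA-*Ddx5* medium by a called log2FC of -0.34 (adjusted p = 0.0034), and with cytokines it was -0.13 (adjusted p = 0.21).

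*Adamts6* and *Adamts10*, linked to fibrillin microfibrils, did not rise in any comparison. *Adamts6* held 3.19, 2.96 and 3.62 FPKM in shRNA-NC medium, 1.76, 3.73 and 2.65 FPKM in shRNA-*Ddx5* medium, 2.70, 2.84 and 2.45 FPKM in shRNA-NC with cytokines and 1.31, 1.29 and 1.44 FPKM in shRNA-*Ddx5* with cytokines. The last group lay below all the others. *Adamts6* fell by 0.64 on the log2 scale with the knockdown under cytokines (SE 0.16, adjusted p = 0.0064) and fell by 0.63 with cytokines in shRNA-*Ddx5* (SE 0.16, adjusted p = 0.013). In medium the knockdown effect on *Adamts6* was -0.23 (adjusted p = 0.26), and it depended on single libraries, at -0.42 (adjusted p = 0.020, a call) without replicate 2 of shRNA-*Ddx5* and -0.03 (adjusted p = 0.86) without replicate 1. Without that replicate 1 the *Adamts6* interaction, -0.41 (adjusted p = 0.29), became -0.61 (adjusted p = 0.049, a call). *Adamts10* was called in 0 of the 4 pairwise comparisons. Its means were 4.39 ± 0.685, 3.48 ± 0.272, 3.07 ± 0.894 and 2.97 ± 0.364 FPKM in shRNA-NC medium, shRNA-*Ddx5* medium, shRNA-NC cytokines and shRNA-*Ddx5* cytokines. The largest difference for *Adamts10* was with cytokines in shRNA-NC (log2FC -0.42, adjusted p = 0.054), which was called in 5 of 20 alternatives. It was -0.58 (adjusted p = 0.012) without replicate 2 of the cytokine libraries and -0.51 (adjusted p = 0.042) without replicate 3 of the medium libraries.

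**Figure D2:**
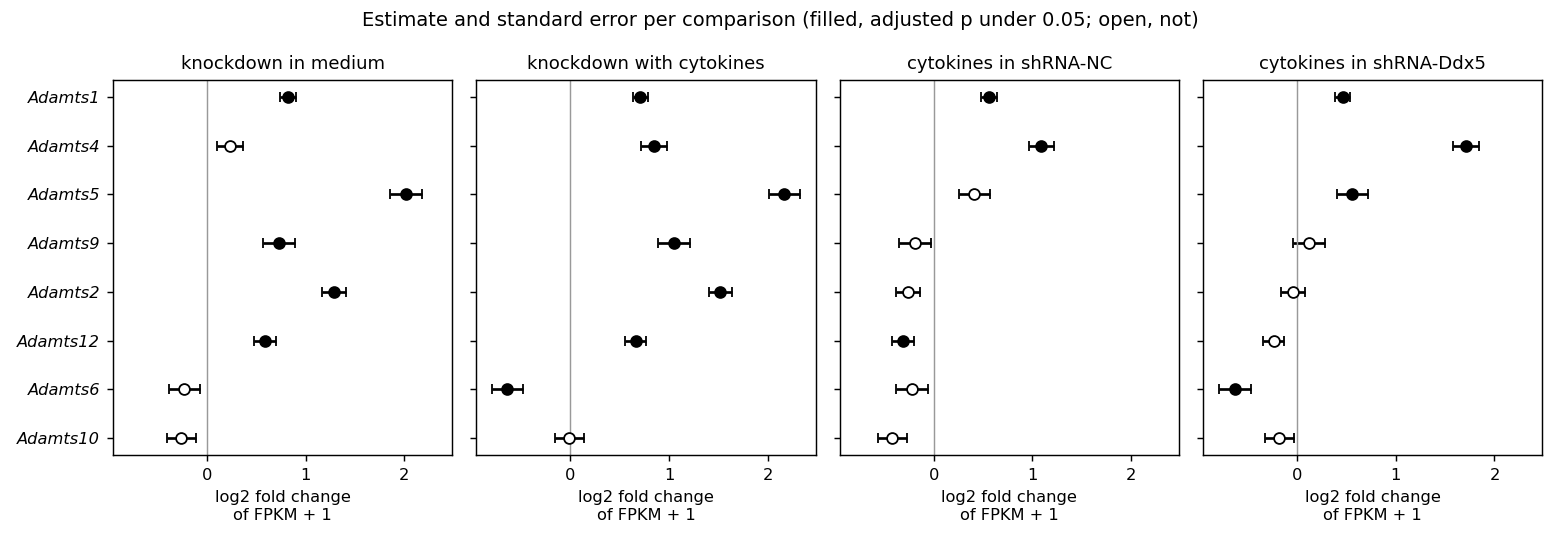
Log2 fold change of FPKM + 1 (x axis) of the 8 tested ADAMTS genes (y axis) in the 4 pairwise comparisons, with bars of 1 standard error and filled points where the adjusted p was under 0.05. *Adamts5* lies farthest to the right in both knockdown comparisons (2.02 and 2.17) and *Adamts4* in both cytokine comparisons (1.09 and 1.71), while *Adamts6* and *Adamts10* are at or below 0 in every one.

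Counted over the family, 8 of the 10 genes could be tested. *Adamts9* and *Adamts12* entered through shRNA-*Ddx5* libraries alone. *Adamts2* would not have entered without them, nor *Adamts4* without its cytokine libraries. The counts of rises in the knockdown and with cytokines are therefore a description and lend no support. In medium, 5 genes rose with the knockdown (*Adamts1*, *Adamts2*, *Adamts5*, *Adamts9*, *Adamts12*) and 0 fell, where 25.3% of the 12368 tested genes rose and 21.7% fell. With cytokines, those 5 and *Adamts4* rose and *Adamts6* fell, against backgrounds of 23.5% up and 22.1% down. Cytokines in shRNA-NC raised *Adamts1* and *Adamts4* and lowered *Adamts12*, against 18.6% and 15.2%. In shRNA-*Ddx5* they raised *Adamts1*, *Adamts4* and *Adamts5* and lowered *Adamts6*, against 13.5% in each direction. The interaction was called in 0 of the 8 genes by limma, against 3.46% up and 4.75% down over all genes. At an unadjusted limma p under 0.05 it was called in 1, *Adamts4*, as it was in 1 of the 8 under quantile normalization. The median log2FC of the 8 genes was 0.66 and 0.78 for the knockdown in medium and with cytokines, beside 0.03 and 0.01 for all tested genes, and -0.20 and 0.04 for cytokines in shRNA-NC and shRNA-*Ddx5*, beside 0.02 and 0.00. The comparisons share control libraries in pairs and are not independent of each other. The split of all calls into rises and falls shifted with the scaling. Of all genes called, 53.8% rose with the knockdown in medium and 55.1% with cytokines in shRNA-NC, but 42.5% and 42.2% when libraries were scaled to their sums of fragments. Under quantile normalization 43.4% rose with cytokines in shRNA-NC, and with cytokines in shRNA-*Ddx5* 39.0% rose instead of 50.0%. No ADAMTS log2FC that was called changed its sign under these scalings.

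The order of levels changed with the line. In shRNA-NC medium *Adamts1* (4.87 ± 0.577 FPKM) and *Adamts10* (4.39 ± 0.685 FPKM) overlapped at the top, *Adamts6* followed, and *Adamts2*, *Adamts12* and *Adamts5*, all near 1 FPKM, overlapped as neighbours in rank. In shRNA-*Ddx5* medium *Adamts1* (9.31 ± 0.362 FPKM) was followed without overlap by *Adamts5* (6.82 ± 0.884 FPKM), and then by *Adamts2*, *Adamts10* and *Adamts6*, which overlapped. With cytokines in shRNA-NC, *Adamts10*, *Adamts4*, *Adamts6* and *Adamts5* overlapped in turn behind *Adamts1*. With cytokines in shRNA-*Ddx5* the first 5, *Adamts1* (13.1 ± 0.224 FPKM), *Adamts5* (10.5 ± 0.417 FPKM), *Adamts4* (5.89 ± 0.550 FPKM), *Adamts2* (3.73 ± 0.332 FPKM) and *Adamts10* (2.97 ± 0.364 FPKM), did not overlap with the next in rank. *Adamts15* was last in all 4 groups.

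Summed over all 19 ADAMTS genes of the table, the level was 17.8 ± 1.01 FPKM in shRNA-NC medium, 33.1 ± 2.36 FPKM in shRNA-*Ddx5* medium, 20.3 ± 3.30 FPKM in shRNA-NC with cytokines and 43.4 ± 0.538 FPKM in shRNA-*Ddx5* with cytokines. The make-up moved as well. *Adamts1*, *Adamts4* and *Adamts5* together made up 37.0 ± 2.21% of the sum in shRNA-NC medium, 52.1 ± 1.33% in shRNA-*Ddx5* medium, 59.8 ± 2.98% in shRNA-NC with cytokines and 68.0 ± 1.27% in shRNA-*Ddx5* with cytokines. *Adamts6* and *Adamts10* together went from 43.0 ± 0.468% to 18.6 ± 2.59%, 28.1 ± 0.743% and 9.96 ± 0.758% in the same order. The 9 ADAMTS genes not followed singly added little. *Adamts3* and *Adamts14* were the 2 of the 9 that passed the filter, and *Adamts19* was listed at 0 in all 12 libraries.

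**Figure D3:**
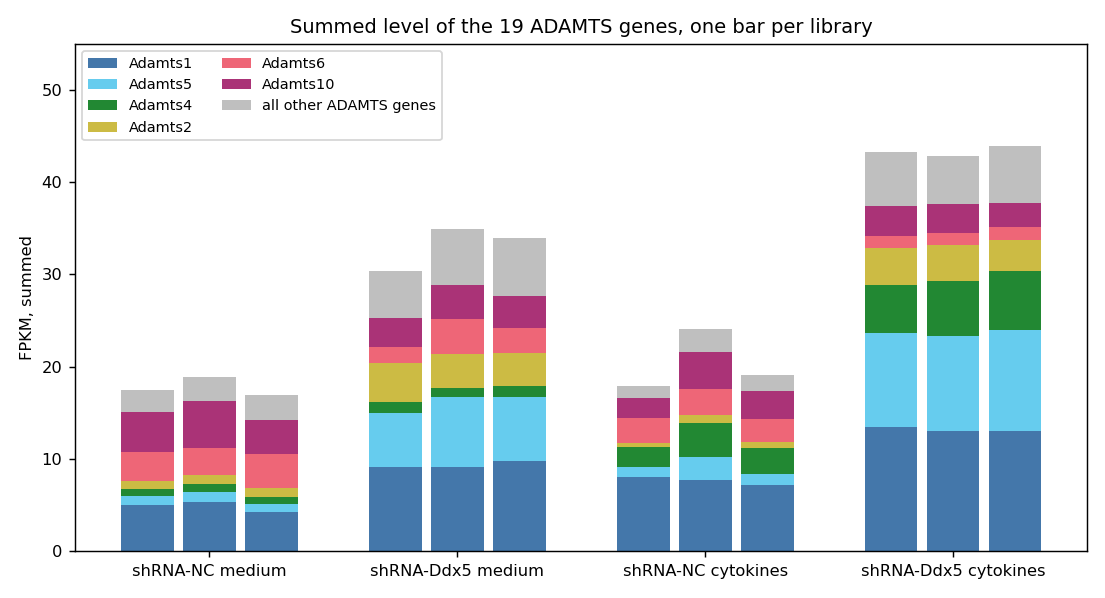
Summed FPKM of the 19 ADAMTS genes (y axis, linear from 0), with 1 bar for each of the 12 libraries in their 4 groups (x axis) and colours for 6 genes and the other 13 together. The bars of shRNA-Ddx5 libraries are taller than those of shRNA-NC libraries in either medium, with means of 33.1 against 17.8 FPKM and 43.4 against 20.3 FPKM, and the *Adamts5* part makes up 20.5% and 24.2% of the shRNA-Ddx5 means beside 5.18% and 7.69%.

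Cytokine responses in shRNA-NC were the results most open to 1 library. The plot of leave-one-out estimates shows that replicate 2 of shRNA-NC with cytokines set one end of the range for 6 of the 8 tested genes, all but *Adamts1* and *Adamts6*, and replicate 1 the other end for 5 of them. Without it the knockdown effects with cytokines were 2.39 for *Adamts5*, 0.72 for *Adamts1*, 0.99 for *Adamts4*, 1.27 for *Adamts9*, 1.63 for *Adamts2*, 0.72 for *Adamts12* and -0.61 for *Adamts6*, all still called (adjusted p 2.0e-07 to 0.022). The directions of these called effects did not change.

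**Figure D4:**
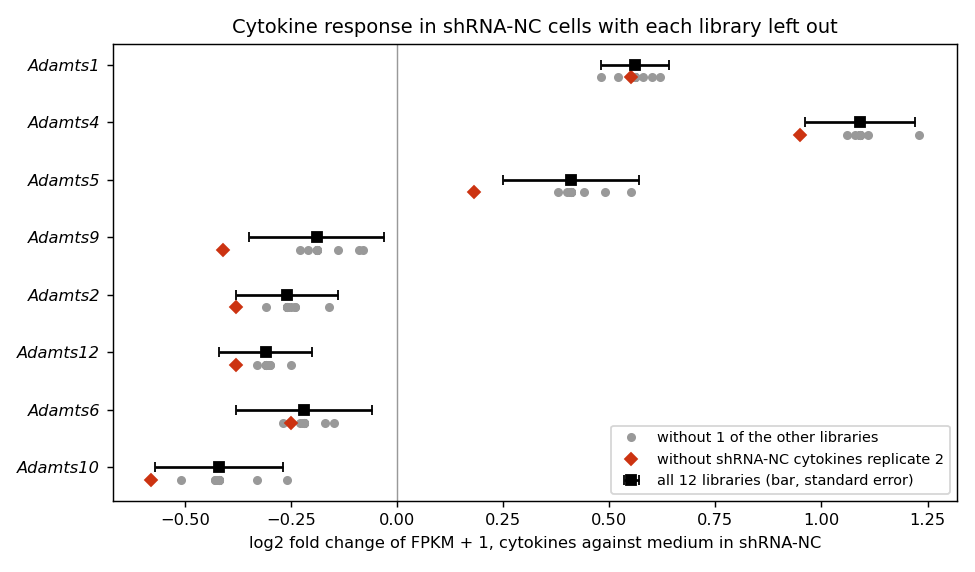
Log2 fold change of FPKM + 1 for cytokines against medium in shRNA-NC cells (x axis) for the 8 tested ADAMTS genes (y axis). Squares are the fit of all 12 libraries with 1 standard error, grey points leave out 1 other library, and diamonds leave out replicate 2 of shRNA-NC with cytokines, which moves *Adamts5* from 0.41 to 0.18 and *Adamts9* from -0.19 to -0.41.

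Genes whose products hold these proteases in check, activate or clear them were read from a list of 10, of which 7 were tested. With the knockdown in medium 2 rose (*Timp1*, *Timp2*) and 1 fell (*Pcsk6*), and the median log2FC was -0.17. With cytokines 5 rose (*Lrp1*, *Sdc4*, *Timp1*, *Timp2*, *Timp3*) and *Pcsk6* fell, with a median of 0.78. Over all tested genes, 25.3% rose and 21.7% fell with the knockdown in medium, and 23.5% and 22.1% with cytokines. *Timp3*, the main tissue inhibitor of the aggrecanases, held 170, 182 and 199 FPKM in shRNA-NC medium and 148, 171 and 170 FPKM in shRNA-*Ddx5* medium. With cytokines *Timp3* held 65.4, 68.5 and 58.7 FPKM in shRNA-NC and 132, 139 and 131 FPKM in shRNA-*Ddx5*. It fell with cytokines in both lines, with a log2FC of -1.50 in shRNA-NC (adjusted p = 4.0e-07) and -0.28 in shRNA-*Ddx5* (adjusted p = 0.042). The second of these calls was lost in 8 of 20 alternatives, 6 of them with 1 library left out (adjusted p 0.060 to 0.14). The *Timp3* interaction of 1.22 (SE 0.13, adjusted p = 3.6e-04) was called. In medium the knockdown effect on *Timp3*, -0.17 (adjusted p = 0.15), was called with scaling to the sum of fragments (-0.27, adjusted p = 0.032) and under quantile normalization (-0.46, adjusted p = 0.0085). *Lrp1*, the endocytic receptor that clears ADAMTS4 and ADAMTS5, held 11.7, 24.8 and 23.1 FPKM in shRNA-NC with cytokines and 42.9, 37.2 and 36.5 FPKM in shRNA-*Ddx5* with cytokines. Its knockdown effect was called with cytokines (log2FC 1.00, adjusted p = 0.0026) and not in medium (log2FC -0.39, adjusted p = 0.15), with a called *Lrp1* interaction of 1.39 (SE 0.30, adjusted p = 0.016). Without replicate 1 of shRNA-NC with cytokines, the low library, the interaction was 1.06 (adjusted p = 0.0010) and the fall of *Lrp1* in medium was called as well (adjusted p = 0.0027). *Sdc4*, a syndecan that binds ADAMTS5, rose with cytokines from 23.7 ± 3.70 to 92.7 ± 12.9 FPKM in shRNA-NC (log2FC 1.93, adjusted p = 5.0e-07) and from 23.9 ± 1.68 to 139 ± 4.23 FPKM in shRNA-*Ddx5* (log2FC 2.50, adjusted p = 4.5e-08). *Furin* and *Pcsk6* encode proprotein convertases that can remove the inhibitory propeptide. *Furin*, with a mean of 20.6 to 25.3 FPKM in the 4 groups, was not called in any comparison of the 12 libraries. Without replicate 3 of shRNA-NC medium, its knockdown effect in medium of -0.25 (adjusted p = 0.16) became -0.38 (adjusted p = 0.031, a call). *Pcsk6* was lower with the knockdown in medium (log2FC -0.35, adjusted p = 0.0060) and with cytokines (log2FC -0.47, adjusted p = 9.5e-04).

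Of 16 substrate genes 10 were tested. *Dcn* passed the filter through shRNA-*Ddx5* libraries alone and *Col2a1* through shRNA-NC libraries alone, each in the line where it is high. With the knockdown 6 rose in medium and 8 with cytokines, *Col2a1* was called lower in both, and the median log2FC was 0.88 and 1.84. The shares over all tested genes were 25.3% up and 21.7% down in medium, and 23.5% up and 22.1% down with cytokines. The procollagens that ADAMTS2 trims rose together with it. *Col1a1* went from 19.7 ± 4.06 to 111 ± 5.43 FPKM in medium (log2FC 2.45, adjusted p = 4.8e-05), *Col1a2* from 499 ± 11.0 to 1738 ± 52.9 FPKM (log2FC 1.80, adjusted p = 6.5e-06), and *Col3a1* from 12.2 ± 0.970 to 274 ± 7.00 FPKM (log2FC 4.38, adjusted p = 2.0e-06). *Col2a1*, which needs the same trimming, went from 12.4 ± 3.05 to 0.899 ± 0.0511 FPKM (log2FC -2.80, adjusted p = 5.9e-06). Given how *Col2a1* entered the test, this difference is a description. *Vcan*, the versican gene cut by ADAMTS1, ADAMTS4, ADAMTS5 and ADAMTS9, rose with cytokines in shRNA-NC (log2FC 0.58, adjusted p = 0.0030) and in shRNA-*Ddx5* (log2FC 0.48, adjusted p = 0.010). *Vcan* passed the filter through cytokine libraries alone, where it is high, so these rises are a description. The knockdown effect on *Vcan* was 0.14 in medium (adjusted p = 0.36) and 0.04 with cytokines (adjusted p = 0.83). *Fbn1*, the fibrillin of the microfibrils to which ADAMTS6 and ADAMTS10 are linked, rose with cytokines in both lines, with a log2FC of 0.70 in shRNA-NC (adjusted p = 0.0011) and 0.97 in shRNA-*Ddx5* (adjusted p = 9.6e-05).

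**Figure D5:**
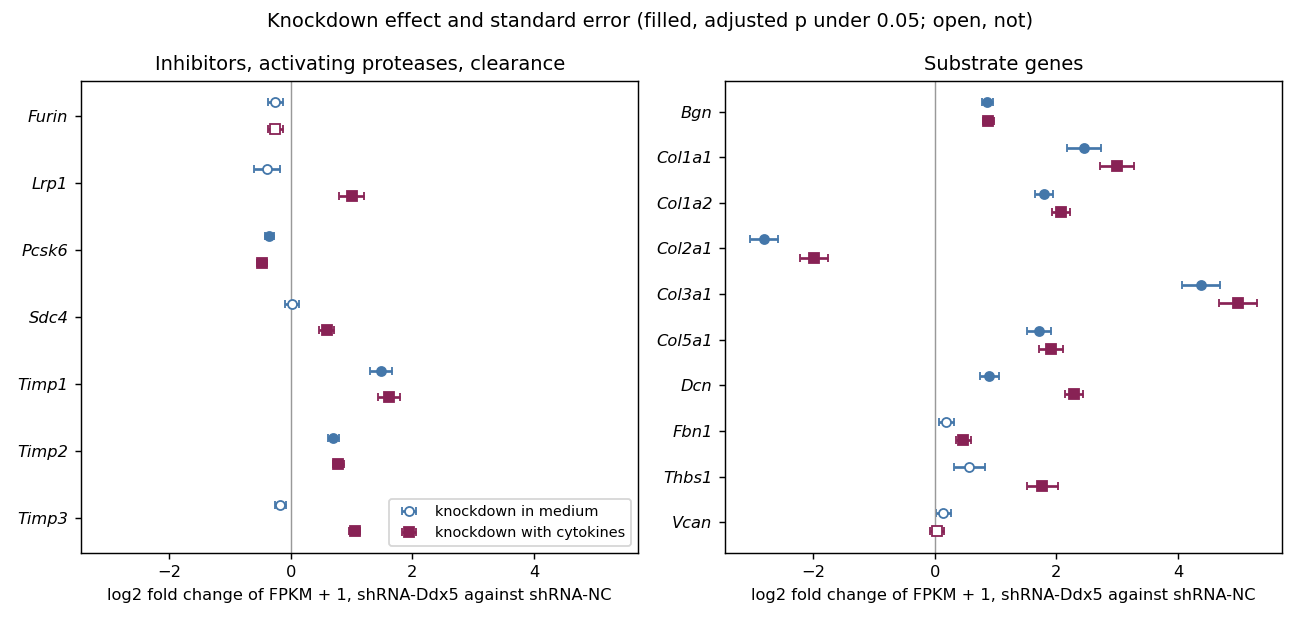
Knockdown effect as log2 fold change of FPKM + 1 (x axes) for the tested genes of the inhibitor, activator and clearance list (left) and the substrate list (right), with bars of 1 standard error. Circles are medium and squares cytokines, filled where the adjusted p was under 0.05. *Timp3* and *Lrp1* lie left of 0 in medium (-0.17 and -0.39, not called in the fit of the 12 libraries) and right of it with cytokines (1.05 and 1.00), and *Col2a1* is the substrate gene that lies far to the left.

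The ADAMTS-like genes encode relatives that lack the protease domain, and 2 of 6 were tested. *Adamtsl3* rose with the knockdown in medium (log2FC 1.22, adjusted p = 1.9e-05) and with cytokines (log2FC 0.71, adjusted p = 7.0e-04) and fell with cytokines, from 3.24 ± 0.330 to 0.908 ± 0.109 FPKM in shRNA-NC and from 8.93 ± 1.63 to 2.13 ± 0.232 FPKM in shRNA-*Ddx5*. *Adamtsl4* fell with cytokines in shRNA-NC (log2FC -0.76, adjusted p = 0.019), a call lost without replicate 1 of the cytokine libraries (log2FC -0.51, adjusted p = 0.056) or without replicate 1 or 2 of the medium libraries (adjusted p 0.064 and 0.066). *Adamtsl1*, untested, totalled 46 fragments in shRNA-NC medium, 588 in shRNA-*Ddx5* medium, 0 in shRNA-NC with cytokines and 38 in shRNA-*Ddx5* with cytokines. Against a floor of 3 fragments over the group, *Adamtsl1* was at least 14.3-fold higher in shRNA-*Ddx5* than in shRNA-NC with cytokines. The genes of the membrane-bound ADAM family, of which 7 of 10 were tested, had a median log2FC of -0.26 and -0.28 for the knockdown in medium and with cytokines. *Adam15* (log2FC -0.77, adjusted p = 5.9e-04) and *Adam9* (log2FC -0.81, adjusted p = 1.2e-04) fell in medium and *Adam23* rose (log2FC 1.31, adjusted p = 2.3e-06). *Adam8* was also called lower in medium (log2FC -0.69, adjusted p = 6.0e-04), but it passed the filter through shRNA-NC libraries alone, where it is high. *Adam19* rose with cytokines from 0.795 ± 0.0543 to 4.75 ± 0.580 FPKM in shRNA-NC and from 0.717 ± 0.0860 to 1.19 ± 0.0386 FPKM in shRNA-*Ddx5* (log2FC 0.35, adjusted p = 0.015, but 0.066 without replicate 3 of the medium and 0.053 without replicate 3 of the cytokine libraries), with an interaction of -1.32 (SE 0.13, adjusted p = 2.3e-04). *Adam19* passed the filter on low values through cytokine libraries alone, so it could hardly have entered this test without being higher there.

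Genes with the most similar patterns were found from the root mean square (RMS) difference of centred log2(FPKM + 1) over the 12 libraries, among 12367 genes, for *Adamts4*, *Adamts5* and the other members called in at least 3 of the 4 pairwise comparisons. For *Adamts5* they were *Penk* (RMS difference 0.217), *Gpc4* (0.229), *Isyna1* (0.280), *Gm5662* (0.283) and *Ly6a* (0.288). *Penk*, the proenkephalin gene, had group means of 2.00, 10.9, 3.34 and 16.8 FPKM in shRNA-NC medium, shRNA-*Ddx5* medium, shRNA-NC cytokines and shRNA-*Ddx5* cytokines. For *Adamts4* they were *Map3k8* (0.074), *Tor3a* (0.126), *Ifi35* (0.145), *Clec2d* (0.153) and *Cxcl9* (0.162). *Map3k8*, a kinase gene, had means of 0.446, 0.565, 1.83 and 4.26 FPKM in the same order. For *Adamts1* they were *Acsl5* (0.104), *Phb* (0.111), *Itm2b* (0.112), *Srm* (0.117) and *Pak1ip1* (0.121), and for *Adamts12* *Nadk2* (0.086), *Fam120c* (0.095), *Lpl* (0.103), *Vrk1* (0.105) and *Ssbp2* (0.106). The points share libraries and scaling, so these are descriptions of likeness.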

How the data were processed

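RNA was measured in 12 libraries of ATDC5 cells, 3 in each of 4 groups, from poly(A) RNA (1 μg) read as paired ends of 150 nt. The authors deposited 1 table of FPKM values for 46731 genes. Per the labels, HISAT2 2.0.5, featureCounts 1.5.0-p3, DESeq2 1.20.0 and GATK 3.7 were used with build mm10, without stated roles. The coordinates of the deposited table are those of GRCm39, since 23755 genes lie within 1 kb of GENCODE vM39 at both ends. Strandedness is not given in the sources used here. FPKM times gene length gave whole fragments in each library (largest distance from a whole number 3.6e-10, tolerance 0.01), 14119199 to 19276520 in all, and these fragments are the depth quoted.

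Genes with at least 1 FPKM in at least 3 libraries (12368) were fitted on log2(FPKM + 1) with limma 3.58.1 in R 4.3.3, as 4 group means over the 12 libraries, with a trended prior and Benjamini-Hochberg adjustment at 0.05. The deposited unit is FPKM and not a count, so the main fit was made on the log scale of FPKM. Voom weights on the recovered fragments were used as an alternative only. The fit was first tested on simulated data. Each result was computed again with 0.1 as pseudocount, without the filter, with a filter on whole groups, with scaling to the sum of fragments, quantile normalization, voom weights, a replicate block, the 6 libraries of a contrast alone, and each library left out. For the genes of the surrounding lists these alternatives were added after seeing the data. They were not read out for *Ddx5*, the cytokine targets or the markers, including those markers that are also substrate genes. The genes and lists were chosen with earlier results of these data known. Named were the 10 genes, *Ddx5*, the surrounding lists, and the 5 genes nearest in pattern to *Adamts4*, *Adamts5* and each other member called in at least 3 of the 4 pairwise comparisons. Promoter windows were read from GRCm39, and 1 of them is not reported here. Libraries of 1 group differed by more than sampling noise (chi-square per degree of freedom 3.98 to 34.9), so each counted once.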

Additional observations from a re-analysis of the deposited data

Results flagged for a closer look

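In 8 genes of the lists read beside the ADAMTS genes the knockdown effect with cytokines differed from that in medium by the interaction term of the limma fit. *Timp3* had an interaction of 1.22 (SE 0.13, adjusted p = 3.6e-04), with group means of 184, 163, 64.2 and 134 FPKM in shRNA-NC medium, shRNA-*Ddx5* medium, shRNA-NC cytokines and shRNA-*Ddx5* cytokines, and over the 19 alternatives it ranged from 1.16 to 1.30 and was called in each. *Lrp1* had an interaction of 1.39 (SE 0.30, adjusted p = 0.016) and means of 25.3, 19.1, 19.9 and 38.9 FPKM in the same order, and it ranged from 1.06 to 1.57 with a call in each alternative. *Dcn*, the decorin gene, had an interaction of 1.39 (SE 0.22, adjusted p = 0.0032), and it passed the filter on low values through shRNA-*Ddx5* libraries alone. The *Dcn* libraries held 0, 1 and 2 fragments in shRNA-NC medium and 2, 15 and 0 in shRNA-NC with cytokines, and its interaction was not called with a pseudocount of 0.1 (1.58, adjusted p = 0.22) or with voom weights (1.09, adjusted p = 0.66). *Adam19*, a membrane-bound metalloproteinase gene, had an interaction of -1.32 (SE 0.13, adjusted p = 2.3e-04), ranging from -1.83 to -1.26 with a call in each of the 19 alternatives. It passed the filter on low values through cytokine libraries alone. The other four belong to the lists of mesenchymal markers and cytokine targets, for which the alternatives were not read out. *Pdgfrb* had an interaction of 1.23 (SE 0.25, adjusted p = 0.012), *Cxcl1* of -2.27 (SE 0.29, adjusted p = 8.5e-04), *Il6* of 1.13 (SE 0.25, adjusted p = 0.019) and *Saa3* of 4.11 (SE 0.73, adjusted p = 0.0061). *Il6* and *Saa3* were listed at 0 in the 3 shRNA-NC medium libraries, so their values depend on the pseudocount. Both passed the filter on low values through cytokine libraries alone. The causes of these differences were not tested.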

How the results depend on the processing

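No call of the 8 tested genes changed direction. Of 792 log2 fold changes of the 8 tested genes under the alternatives, 756 kept their side of the threshold, 19 lost a call and 17 gained one. Of 297 counts, 271 stayed within 1.5 times. For the surrounding lists, 2298 of 2366 values kept their side, 38 lost a call and 30 gained one. The substrate genes *Col1a1*, *Col1a2*, *Col2a1* and *Col3a1*, which are also markers, are not among these values. Without a filter the numbers of the 10 genes called higher in the knockdown were 6 in medium and 7 with cytokines in place of 5 and 6, with *Adamts15* added. Among the 10 genes, the number called lower in the knockdown in medium was 1 in place of 0 without a filter (*Adamts7*) and 0 to 1 with 1 library left out. The number called lower with cytokines in shRNA-NC, 1 in the report, was 0 without a filter, under quantile normalization and with the libraries of the contrast alone, 2 with scaling to the sum of fragments and with the replicate block, 3 with voom weights and 0 to 4 with 1 library left out. In shRNA-*Ddx5* it was 1 to 2 with 1 library left out. For the interaction, 1 gene (*Adamts4*) was called higher under quantile normalization, and 0 to 1 higher and 0 to 1 lower with 1 library left out. The number of all genes with a called interaction, 1016, was 559 to 1123 with 1 library left out. The causes of these changes were not tested, except that fits with 1 library fewer hold fewer libraries.

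Replicate numbers did not pair the libraries across all comparisons. The mean correlation of deviations between same-numbered libraries was 0.268, 0.005, -0.178 and -0.087 in the 4 pairwise comparisons, and 4, 2, 0 and 1 of 6 libraries were nearest to their own number. With the replicate block 5452, 5232, 3769, 2902 and 687 genes were called in the 5 comparisons, in place of 5817, 5645, 4181, 3344 and 1016. Among the members the block changed 1 call, *Adamts10* with cytokines in shRNA-NC (-0.42, adjusted p = 0.038). Depth limits *Adamts15* and *Acan*, where 3 fragments equal 0.0188 to 0.0295 FPKM.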
